A study of Mus musculus with 4 samples.

Results

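The genes described here are 43 members of the glycolytic pathway and of the cellular response to low oxygen: glycolytic enzymes, lactate and glucose transporters, regulators of glycolytic flux, the components of the HIF (hypoxia-inducible factor) system, and HIF target genes. The rule takes them by symbol and uses no measured value, but the list was drawn up with earlier results of these data known. Of the 43, 39 had at least 1 gene probe set annotated with that symbol alone, Gapdh was represented by control probe sets, and Gpi1, Eno1 and Bnip3l had none and were not analysed as single genes here. Ero1l was found under its current symbol Ero1a. In all, the arrays named 18194 genes. The samples were 1 RNA from E2f4 knockout neurospheres and 1 RNA from wild-type neurospheres, both grown from the ventral telencephalon of the mouse forebrain at embryonic day E12.5. Neurospheres are floating cultures of neural stem and progenitor cells. Each RNA was hybridised to 1 MOE430A and 1 MOE430B array, and no other allele, treatment or age differed in the labels. The kind of E2f4 allele, the number of embryos behind each culture and the oxygen tension of the incubator are not given in the sources used here.

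There was 1 sample per genotype, so no value carries a test, a p-value or an error between cultures, and every ratio compares these 2 RNAs rather than 2 genotypes. E2f4 itself, on its 1 probe set, had a signal of 1535 in the knockout sample and 1812 in the wild type, a log2 ratio of -0.25. Where this probe set lies relative to the deletion is not given, so it does not check the label. The knockout and wild-type arrays of each design shared a hybridisation day. In both samples all 8 neural progenitor markers examined were measured, among them Sox2 and Nes, as were all 8 neuron markers and the embryonic globins Hba-x, Hbb-bh1 and Hbb-y of red blood cells.

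Glycolysis breaks glucose down to pyruvate and yields ATP without oxygen, and lactate dehydrogenase then turns pyruvate into lactate. When oxygen is plentiful, prolyl hydroxylases (the Egln family) mark HIF alpha subunits, the VHL protein binds the marked subunits, and they are degraded. When oxygen is scarce the alpha subunits accumulate, pair with ARNT and switch on genes of glycolysis, vessel growth and mitochondrial turnover by binding a short DNA element. Neural progenitors of the early forebrain grow in a tissue with few vessels and are known for a high rate of glycolysis.

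The promoter windows of 6 members are shown because they hold the core of that DNA element. They cover 250 bases before to 50 bases after the annotated transcription start and come from RefSeq on GRCm38.p6. Capitals mark every match, on either strand, to the cores ACGTG or GCGTG (read on the other strand as CACGT or CACGC, and overlapping where CACGTG occurs). Pgam1, Ldha, Slc16a3, Egln1 and Bnip3 stand for the 4 role groups among the members that were higher in the knockout sample, and P4ha1 is a HIF target whose 1 measured probe set was lower there, a direction that turned under 3 of 11 other ways of processing. Holding the core did not go with being higher in every member. Tpi1 (log2 ratio 0.31) and Vhl (0.29) were higher and held neither core in their windows. Hk2 (-0.21), Pfkm (-0.09) and Hif1a (-0.13) were lower and held ACGTG. Where a gene has several annotated starts the first in the table is given.
Pgam1 (chr19:41911621-41911920, + strand): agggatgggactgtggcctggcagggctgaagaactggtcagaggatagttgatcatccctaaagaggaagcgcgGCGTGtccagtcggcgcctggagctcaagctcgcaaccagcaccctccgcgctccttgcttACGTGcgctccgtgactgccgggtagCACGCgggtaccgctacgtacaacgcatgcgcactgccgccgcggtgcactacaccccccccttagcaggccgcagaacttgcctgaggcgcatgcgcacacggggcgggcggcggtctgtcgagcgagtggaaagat
Ldha (chr7:46845554-46845853, + strand): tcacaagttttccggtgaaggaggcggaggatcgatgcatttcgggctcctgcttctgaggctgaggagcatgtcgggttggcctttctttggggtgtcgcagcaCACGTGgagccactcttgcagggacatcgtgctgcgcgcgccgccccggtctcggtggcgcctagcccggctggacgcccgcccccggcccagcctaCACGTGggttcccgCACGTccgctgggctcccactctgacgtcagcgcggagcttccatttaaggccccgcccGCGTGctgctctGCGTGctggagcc
Slc16a3 (chr11:120948817-120949116, + strand): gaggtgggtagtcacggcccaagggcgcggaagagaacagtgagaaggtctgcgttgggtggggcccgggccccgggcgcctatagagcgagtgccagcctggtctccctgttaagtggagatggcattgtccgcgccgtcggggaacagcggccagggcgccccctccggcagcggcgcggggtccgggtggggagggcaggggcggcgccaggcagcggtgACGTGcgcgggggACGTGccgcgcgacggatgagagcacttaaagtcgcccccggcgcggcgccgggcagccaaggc
Egln1 (chr8:124949205-124949504, - strand): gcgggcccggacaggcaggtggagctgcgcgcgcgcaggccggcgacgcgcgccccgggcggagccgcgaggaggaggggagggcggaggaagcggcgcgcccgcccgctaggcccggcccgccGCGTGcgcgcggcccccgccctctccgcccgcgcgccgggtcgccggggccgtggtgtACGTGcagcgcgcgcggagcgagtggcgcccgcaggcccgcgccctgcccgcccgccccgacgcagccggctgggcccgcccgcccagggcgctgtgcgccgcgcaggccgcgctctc
Bnip3 (chr7:138909457-138909756, - strand): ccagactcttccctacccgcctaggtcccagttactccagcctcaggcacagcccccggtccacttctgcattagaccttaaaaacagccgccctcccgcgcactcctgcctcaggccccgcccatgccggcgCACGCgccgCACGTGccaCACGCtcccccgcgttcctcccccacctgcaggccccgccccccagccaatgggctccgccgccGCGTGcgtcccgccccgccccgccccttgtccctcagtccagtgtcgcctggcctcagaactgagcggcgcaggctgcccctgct
P4ha1 (chr10:59323046-59323345, + strand): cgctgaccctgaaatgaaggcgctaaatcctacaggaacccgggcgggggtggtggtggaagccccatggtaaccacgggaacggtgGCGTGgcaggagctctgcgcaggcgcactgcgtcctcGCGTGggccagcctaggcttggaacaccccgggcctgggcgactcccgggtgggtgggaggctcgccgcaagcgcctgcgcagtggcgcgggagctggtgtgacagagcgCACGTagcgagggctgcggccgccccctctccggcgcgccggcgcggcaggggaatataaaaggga

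In Slc16a3 the 2 matches start 27 and 14 bases before the transcription start, at positions -27 and -14, and the Ldha window holds 7 matches. Promoter windows were found for 39 of the 43 members. The ACGTG core lay in 57.9% of the 38 windows of measured members, beside 25.2% of the 10617 windows of all measured genes and 19.6% of all 32851 windows in the table. Either core lay in 81.6% of the measured members' windows, beside 61.3%. These windows had a median G and C content of 63.8% in measured members and 61% in all measured genes. Among windows with at least 60% G and C the ACGTG share was 79.2% of 24 for the members and 27.4% of 5779 for all measured genes. Many members are on the list because they are known HIF targets, so these shares describe the list. None of the 54 member windows held an exact E2F motif (TTTGGCGC, TTTCCCGC, TTTGCCGC or TTTCGCGC, either strand). Such a motif lay in 4.03% of the windows of measured genes and 2.26% of all windows. At these shares a count of 0 in so few windows is near the background and is not a result about the members. Only these exact forms were searched, so shorter or other forms of the motif were not counted.

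A gene counted as measured where its signal reached a floor on both arrays of a design, set at the median of that design's signals (736 on MOE430A and 942 on MOE430B). The value of a gene is the mean log2 ratio, knockout over wild type, of its measured probe sets, after centring each design on its median. By this rule 30 members were measured, 5 were above the floor in 1 sample only, and Eno2, Egln3, Car9 and P4ha2 were below it in both.

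The measured members lay on the whole slightly higher in the knockout sample. Their median log2 ratio was 0.10, with 20 of 30 above 0, whereas the median over all 10171 measured genes was -0.01 and 48.6% of these lay above 0. The differences were small. Egln1 alone was at least 1.5-fold higher, 1 of 30 members beside 3.4% of all measured genes, and no member was at least 1.5-fold lower, beside 3.89%. At a size of 1.3-fold, Egln1, Slc16a3 and Vegfa were higher, 3 of 30 beside 9.54%, and none was lower, beside 10.4%. The counts on the higher side are near the background and are not a result about the members. With 30 members, 1 sample per genotype and a list drawn up with results known, the absence of lower ones is not one either. The side of the median was not the same on every probe set: it was -0.05 over the 9 members measured on MOE430B, and for the enzymes it was -0.07 over the 6 left without _x_at, _s_at and _a_at probe sets.

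**Figure D1:**
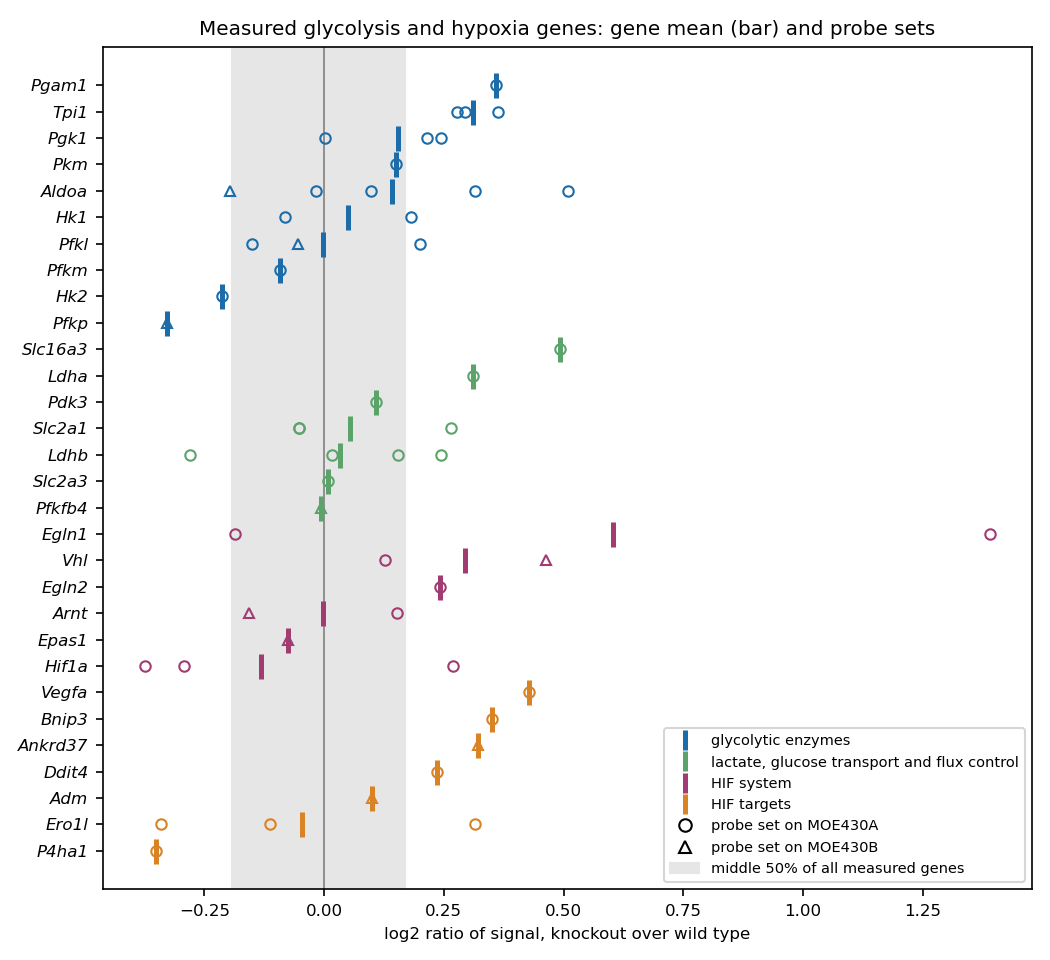
Log2 ratio of signal (knockout over wild type, horizontal axis) for the 30 measured members, ordered within role groups. Short upright bars are gene means, circles and triangles single probe sets on MOE430A and MOE430B, and the grey band holds the middle 50% of all measured genes. Most bars lie right of 0 but close to it, and the probe sets of Egln1 lie far apart, at -0.19 and 1.39.

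Among the enzymes downstream of aldolase, Tpi1, Pgk1, Pgam1 and Pkm were higher in the knockout sample. Gapdh and Eno2, which also act downstream and are described below, were not measured as higher. The split of the enzymes at aldolase was not planned beforehand. Triose phosphate isomerase, Tpi1, which interconverts the triose phosphates made by aldolase, had signals of 8594, 3505 and 9447 in the knockout sample, against 6967, 2707 and 7740 in the wild type. All 3 of its probe sets were higher in the knockout, and its log2 ratio was 0.31, or 1.24-fold, with an SD of 0.05 between probe sets. Phosphoglycerate mutase, Pgam1, read 6462 in the knockout sample and 5004 in the wild type on its 1 probe set, 1.28-fold higher. This probe set and the 3 of Tpi1 are of the types _a_at and _x_at, which can match several transcripts. Without these types neither gene had a value. Pgk1, phosphoglycerate kinase, which makes the pathway's first ATP, had a log2 ratio of 0.15. Its probe sets read 20299, 53075 and 1922 in the knockout sample, against 17025, 52672 and 1646 in the wild type, so that the brightest one differed least. Pkm, pyruvate kinase, which makes pyruvate and ATP in the last step, read 25084 in the knockout sample and 22456 in the wild type, a log2 ratio of 0.15.

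Gapdh, which oxidises glyceraldehyde phosphate, was read by 6 control probe sets, 3 on each design. Their log2 ratios had a mean of 0.04 ± 0.09 (SD, 6 probe sets) and ran from -0.07 to 0.17. Signals were between 72879 and 218169 in the knockout sample, and between 67934 and 193878 in the wild type. Gapdh thus differed by less than the spread of its own probe sets.

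The enzymes from hexokinase to aldolase lay on both sides of 0. Aldolase A, Aldoa, which splits the hexose bisphosphate, averaged 0.14, but its 5 probe sets ran from -0.20 to 0.51. The extremes were 3815 in the knockout sample against 2663 in the wild type on MOE430A, and 9255 in the knockout sample against 10630.4 in the wild type on MOE430B. Hexokinases trap glucose in the cell by phosphorylating it. Hk1 was at 0.05 with probe sets of opposite sign, and Hk2, the HIF-responsive form, read 2286 in the knockout sample and 2635 in the wild type, a log2 ratio of -0.21.

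Phosphofructokinase commits sugar to glycolysis, and none of its 3 subunit genes was higher. Pfkl, the liver-type subunit, stood at 0.00 with probe sets from -0.15 to 0.20. Pfkm, the muscle-type subunit, read 4597 in the knockout sample and 4870 in the wild type, a log2 ratio of -0.09. Pfkp, the platelet-type subunit, was at -0.33, with 1344 in the knockout sample and 1692 in the wild type on MOE430B. Of its other 2 probe sets, 1 was close to the floor at 723 in the knockout sample and 771 in the wild type, and 1 was under it at 342 in the knockout sample and 142 in the wild type. With no floor, which averages all 3, Pfkp was at 0.28, and with a pseudocount equal to the floor at 0.014. Aldoc, the brain aldolase, passed the floor only in the knockout sample, at 1055 against 616 in the wild type, at least 1.43-fold higher. The neuronal enolase Eno2 stayed under the floor in both, at 307 in the knockout sample and 426 in the wild type. Over the 10 measured enzymes the median was 0.10, with 6 higher and 4 lower.

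Genes that handle lactate included the most different transporter. Slc16a3, the lactate exporter MCT4 and a HIF target, read 1126 in the knockout sample and 795 in the wild type, 1.41-fold higher; the wild-type signal lay just above the floor. Ldha, the lactate dehydrogenase subunit that favours lactate production, read 18025 in the knockout sample and 14447 in the wild type, a log2 ratio of 0.31. Its only probe set is of the type _a_at, which can match several transcripts. Ldhb, the subunit that favours the return to pyruvate, was at 0.03, its 4 probe sets running from -0.28 to 0.24. The lactate transporter Slc16a1 (MCT1) passed the floor only in the knockout sample, at 863 against 711 in the wild type, at least 1.17-fold higher. The other Slc16a1 probe set, on MOE430B and under the floor in both samples, pointed the other way, with 299 in the knockout sample and 384 in the wild type.

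The glucose transporters Slc2a1 (GLUT1) and Slc2a3 (GLUT3, the neuronal form) lay at 0.05 and 0.01. The value of Slc2a3 rests on 1 of 4 probe sets, at 1269 in the knockout sample and 1253 in the wild type. Another passed the floor only in the wild type, with 689.5 in the knockout sample and 919.7 in the wild type, at least 1.25-fold lower, and one under the floor read 32.1 in the knockout sample and 478 in the wild type. Slc2a3 was at -0.21 with the floor at percentile 30 and at -1.06 with no floor. On Slc2a1 1 probe set was higher, at 1713 in the knockout sample and 1417 in the wild type, and the other 2 were both at -0.05. Of the kinases that keep pyruvate out of the mitochondrion, Pdk3 was at 0.11, with 865 in the knockout sample and 798 in the wild type, and Pdk1 gave contradictory bounds. A probe set of Pdk1 on MOE430B read 1623 in the knockout sample and 115 in the wild type, at least 1.72-fold higher, and one on MOE430A read 621 in the knockout sample and 947 in the wild type, at least 1.29-fold lower. Pfkfb4, which makes an activator of phosphofructokinase, was at -0.01 with 4032 in the knockout sample and 4059 in the wild type. Its relative Pfkfb3 passed the floor only in the wild type, with 536 in the knockout sample and 815 in the wild type, at least 1.11-fold lower. The other Pfkfb3 probe set, under the floor in both samples, pointed the other way, with 579 in the knockout sample and 512 in the wild type. Over the 7 measured genes of this group the median was 0.05, with 6 higher and 1 lower.

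Among the genes of the HIF system, Egln1 (PHD2), the main oxygen-sensing prolyl hydroxylase, had the largest value of the measured members as reported, 0.60 or 1.52-fold, from 2 probe sets that disagreed. One read 5272 in the knockout sample and 1998 in the wild type, and the other read 2676 in the knockout sample and 3023 in the wild type. Egln2 (PHD1) read 4734 in the knockout sample and 3977 in the wild type, a log2 ratio of 0.24. Vhl, the ubiquitin ligase subunit that captures hydroxylated HIF, was at 0.29, with 1819.7 and 7674 in the knockout sample, against 1656 and 5583 in the wild type. Its 2 probe sets, 1 on each design, were both higher in the knockout sample.

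Hif1a, the oxygen-regulated subunit, averaged -0.13 with 2 probe sets lower and 1 higher. These read 778, 3399.6 and 1358 in the knockout sample, against 947, 4377 and 1119 in the wild type. Epas1 (HIF2 alpha) was at -0.08, with 1912 in the knockout sample and 2021 in the wild type, and its other probe set was under the floor at 146 in the knockout sample and 88.1 in the wild type. With no floor Hif1a was at 0.49 and Epas1 at 0.32, and with the pseudocount at 0.084 and 0.021. Arnt, the constant partner subunit, was at 0.00 on its measured probe sets, while another on MOE430B passed the floor only in the knockout sample, at 2243 against 840 in the wild type, at least 2.38-fold higher. Egln3 (PHD3), itself a HIF target in many cells, stayed under the floor on both of its probe sets, at 70.4 and 469.9 in the knockout sample, against 86.5 and 208 in the wild type. Over the 6 measured genes of the system the median was 0.12, with 3 higher and 3 lower. HIF activity is governed largely by protein stability, which these arrays do not read.

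The HIF targets had a median of 0.24, with 5 of 7 measured genes higher. With the floor at percentile 30 the median was 0.10, and with the floor at percentile 70 it was 0.061. Vegfa, the main growth factor of blood vessels, read 1612 in the knockout sample and 1191 in the wild type, 1.34-fold higher; its other probe set did not reach the floor in either sample, with 487 in the knockout and 610.1 in the wild type. With the floor at percentile 30 or with no floor both were averaged, the log2 ratio of Vegfa was 0.046, and it was no longer 1.3-fold higher; with the pseudocount it was 0.070. Bnip3, a mitochondrial protein that promotes removal of mitochondria, read 1581 in the knockout sample and 1232 in the wild type, a log2 ratio of 0.35. Ankrd37, a small ankyrin-repeat protein, read 1479.6 in the knockout sample and 1188 in the wild type, a log2 ratio of 0.32. Ddit4 (REDD1), an inhibitor of mTORC1, read 3683 in the knockout sample and 3109 in the wild type, a log2 ratio of 0.24. Each of these 4 values rests on 1 measured probe set, 3 of them at signals under 2 times the floor.

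The remaining targets lay on both sides of 0. Adm, the vasodilator peptide adrenomedullin, was at 0.10. Ero1l, the oxidase that drives disulphide formation in the endoplasmic reticulum, was at -0.05, with probe sets at 0.31, -0.34 and -0.11. P4ha1, a collagen prolyl hydroxylase subunit, was at -0.35, with 817 in the knockout sample and 1035 in the wild type. Its second probe set, under the floor in both samples, read 709 in the knockout and 524 in the wild type. With the floor at percentile 30 or with no floor P4ha1 was at 0.038, and with the pseudocount at 0.00063. Ndrg1, a strong hypoxia marker in many cells, had 5 probe sets. Of these, 1 passed the floor, only in the wild type, with 676 in the knockout sample and 798 in the wild type. The other 4 lay between 52.3 and 101 in the knockout sample, and between 44.7 and 92.6 in the wild type. Car9, a carbonic anhydrase that is among the most HIF-specific targets, read 732 in the knockout sample and 599 in the wild type, below the floor in both. P4ha2, another collagen prolyl hydroxylase subunit, was also below it, at 131 in the knockout sample and 23.1 in the wild type.

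Grouped by promoter, the 20 measured members with an ACGTG core in a window had a median log2 ratio of 0.15, with 15 higher, and the 8 without one had a median of 0.02, with 4 higher. Among all measured genes 48.5% of those with the core and 48.1% of those without it were higher. Slc2a3 and Epas1 were measured but had no promoter window. A gene with several windows counted as having the core where any of them held it. Vegfa, Hk1, Aldoa and Pkm had none in the first window and were counted through another. The grouping was not planned beforehand. It describes letters in a window and not binding.

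The members' probe sets, taken singly, numbered 86, of which 53 were measured. On MOE430A 30 of 44 measured probe sets had a ratio above 0, median 0.15, and on MOE430B 3 of 9 had, median -0.05. Over all measured probe sets the share above 0 was 47.9% on MOE430A and 50.2% on MOE430B. Several members enter these counts with more than 1 probe set. Of 12 members with more than 1 measured probe set, 9 had probe sets on both sides of 0, and 3 had all of them higher (Tpi1, Pgk1 and Vhl). Over all genes with more than 1 measured probe set, 57.9% were split in this way and 20.8% had all higher. Pooled over genes, probe sets of the same gene had an SD of 0.33 on the log2 scale, both for the 12 members and for all 3956 such genes. For the members without Egln1 it was 0.24. The members' values, with the exception of Egln1, Slc16a3, Vegfa, Pgam1, Bnip3 and P4ha1, were smaller than the SD over all such genes, and no value of these 6 but that of Egln1 could be compared with a second measured probe set.

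The share above 0 differed between classes of signal. Of the 26 measured probe sets with a mean signal over 4 times the floor, where all ratios had an SD of 0.27, 19 were above 0 and the median was 0.22. Of the 12 between 2 and 4 times the floor 3 were higher, and of the 15 under 2 times the floor 11 were. The share of all measured probe sets above 0 was 48.8%, 49% and 49.1% in these classes, from bright to dim. All member probe sets but 2, Egln1 at 1.39 and Aldoa at 0.51, lay inside the central 95% of all ratios of their class. Members' probe sets of the types _x_at, _s_at and _a_at, which can match several transcripts, were higher in 21 of 29 cases, and plain _at probe sets in 12 of 24. Over all measured probe sets of these types the shares were 50.2% of 4717 and 48.6% of 15210.

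**Figure D2:**
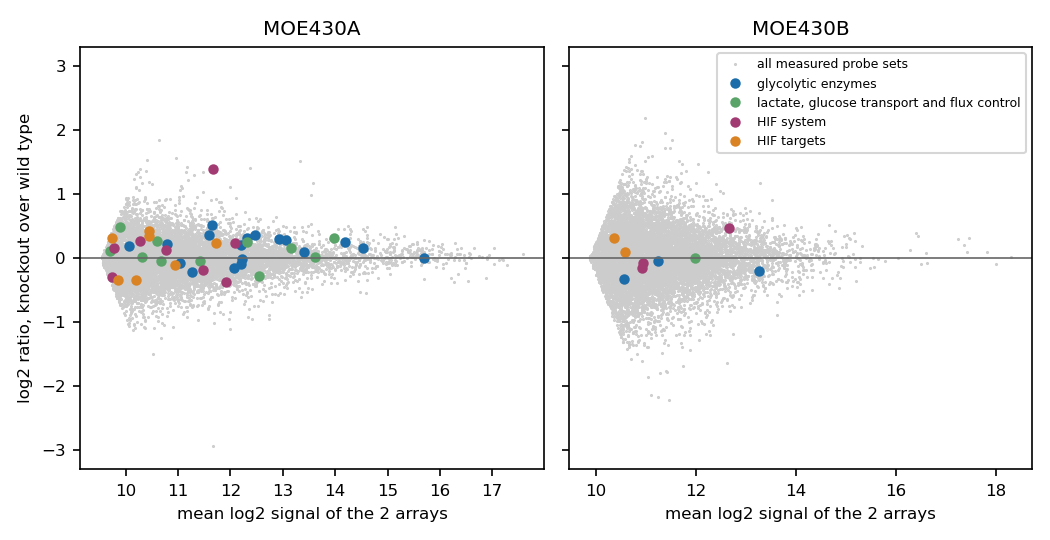
Log2 ratio (knockout over wild type, vertical axis) against mean log2 signal of the 2 arrays (horizontal axis) for each design. Grey points are all measured probe sets and coloured points those of the members by role group. The members lie within the cloud, with 1 probe set of Egln1, at 1.39 on MOE430A, near its upper edge.

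**Figure D3:**
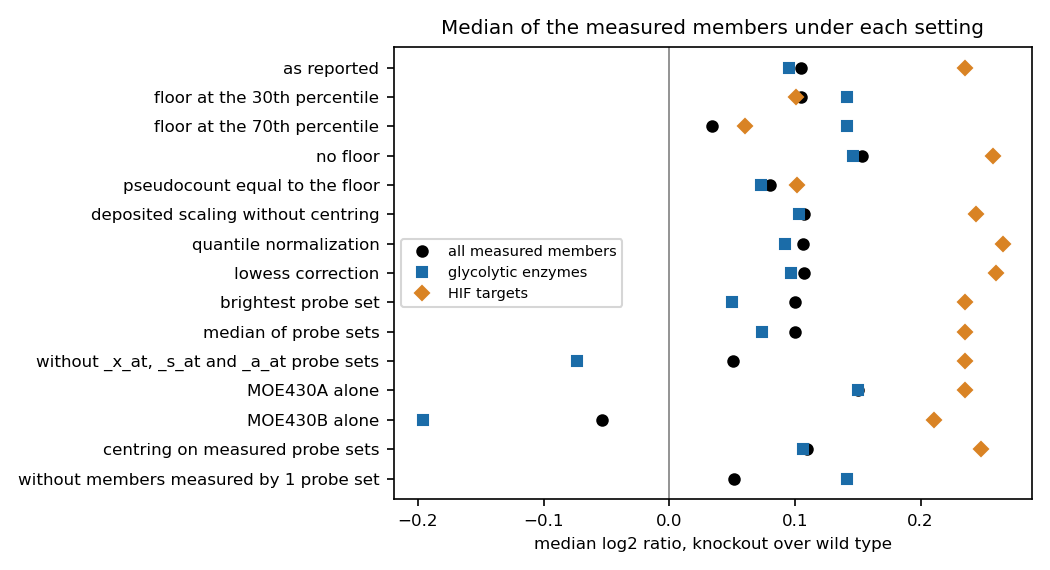
Median log2 ratio (knockout over wild type, horizontal axis) of all measured members, the glycolytic enzymes and the HIF targets as reported and under each other way of processing (vertical axis). The HIF targets lie right of 0 wherever a value is shown, whereas the enzymes lie at -0.20 and all members at -0.05 on MOE430B alone. There the HIF targets rest on Adm and Ankrd37 only.

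Other genes of the same pathways are given for comparison. Of 13 further measured glycolysis genes 4 were higher and 9 lower, with a median of -0.15. Gpd2, the mitochondrial glycerol phosphate dehydrogenase, was 1.59-fold higher, reading 4076 and 2308 in the knockout sample, against 2723 and 1369 in the wild type. The 2 other Gpd2 probe sets were above the floor in 1 sample only and pointed opposite ways. Bpgm, which makes the bisphosphoglycerate that tunes oxygen release from haemoglobin, was 1.64-fold lower, reading 794 and 2540.1 in the knockout sample, against 1636 and 3273 in the wild type. The other Bpgm probe set, which passed the floor only in the knockout sample, was at least 1.40-fold higher.

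Of 20 further measured HIF genes 11 were higher and 9 lower, with a median of 0.02. Higd1a, a hypoxia-induced mitochondrial protein, read 3071 in the knockout sample and 1895 in the wild type, 1.61-fold higher, and Depp1 read 1057 in the knockout sample and 4653 in the wild type, 4.39-fold lower. Each rests on 1 measured probe set, and Depp1 was put on this list with its value known. For the 6 measured genes of the pentose phosphate pathway, which branches off glycolysis to make NADPH and ribose, the median was -0.09 with 2 higher. Rpia was lowest there at -0.52, Taldo1 was at -0.18 and Tkt at 0.14. For 23 genes of pyruvate entry and the citric acid cycle, the aerobic continuation of glycolysis, it was -0.01 with 10 higher. Sdhd was at 0.52, Dld at 0.40 and Pdhx at -0.33. None of these differences between lists could be tested with 1 sample per genotype.

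**Figure D4:**
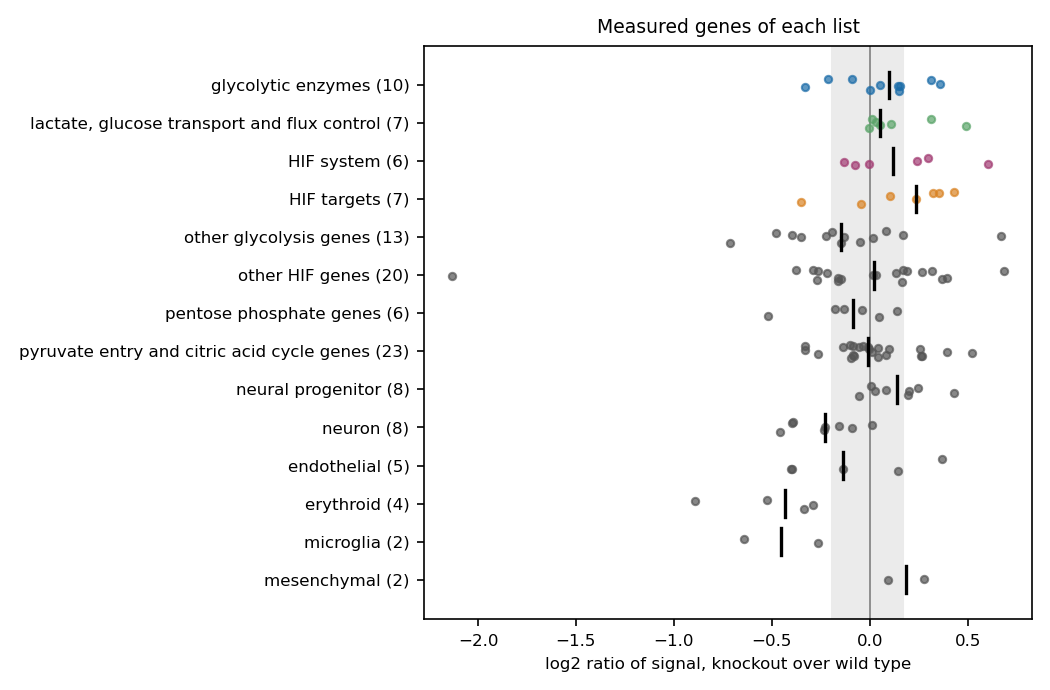
Log2 ratios (knockout over wild type, horizontal axis) of the measured genes of each list, the 4 role groups of members in colour and other lists in grey, with the number of measured genes in brackets. Black bars are medians and the grey band holds the middle 50% of all measured genes. The median is 0.24 for HIF targets, 0.10 for glycolytic enzymes and -0.15 for other glycolysis genes, and the HIF targets lie below the enzymes with the floor at percentile 30 or 70.

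Markers of cell types differed between the samples as well. In a bulk sample fewer cells of a type and less RNA per cell cannot be told apart. Summed over all their probe sets, 8 neuron markers gave a signal of 160131 in the knockout sample and 186381 in the wild type, with 7 of 8 lower. The 8 progenitor markers gave 150713 in the knockout sample and 138315 in the wild type, with 7 of 8 higher. Over all measured genes 48.6% were higher. Of the progenitor markers only Pax6, at 0.43, differed by more than the SD of 0.33 between probe sets of a gene. Of the neuron markers Map2, Elavl3 and Nefl did. Prom1, Sox2 and Vim were at 0.01, 0.03 and 0.08. The erythroid markers gave 216445 in the knockout sample and 281548 in the wild type. All 4 measured ones were lower, with Hbb-bh1 at -0.89, and Hba-a1, Alas2 and Gata1 were below the floor. Of the endothelial markers 2 of 5 measured ones were higher, with Pecam1, Cdh5 and Tek below the floor. Most microglial and mesenchymal markers were below the floor, 2 of 7 being measured on each list. The part of these cell types in the members' values was not tested.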

How the data were processed

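Total RNA of 2 neurosphere samples was prepared on RNeasy columns and labelled as biotin cRNA without amplification, per the labels' protocols. The deposited values are linear signal intensities. The submitters' processing notes name MAS5; its version and scaling target are not given in the sources used here. The tables used hold no detection calls. Within a design the deposited arrays had like median intensities, 736 in the knockout and 735 in the wild type on MOE430A, and 942 in the knockout and 941 in the wild type on MOE430B.

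From these intensities the log2 ratio per probe set was computed within a design and centred on its median (shifts of 0.01 and 0.00), leaving out 64 control probe sets per design. Floor and gene means are as stated above. Fold bounds for genes above the floor in 1 sample are the brighter signal over the floor. Gene names came from the platform annotation, and a look-up of gene identifiers in RefSeq (GRCm38.p6) altered none. Probe sets numbered 20380 with 1 symbol, 691 with several and 1555 with none on MOE430A, and 14661, 245 and 7605 on MOE430B.

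The members and lists were chosen with earlier results of these data known. All members were accounted for, with both signals for those at least 1.3-fold different and for the 3 largest differences of each group. On the other pathway lists genes at least 1.5-fold different were named, at most 6, or else the 3 farthest from 0. Precision is limited by the number of arrays, and no test across samples was possible. The procedure was tested on simulated data with changes of at least 2-fold, so that test does not cover differences as small as those of the members. The alternatives concerned the floor, the scaling, the summary of probe sets, the kind of probe set, the design and the fold. The work was done in Python 3.11.15 with pandas 2.3.3, numpy 2.4.6, statsmodels 0.14.6 (lowess, span 0.3) and matplotlib 3.10.9.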

Additional observations from a re-analysis of the deposited data

How the results depend on the processing

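The median over all measured members was above 0 in 13 of 14 alternatives, between -0.054 and 0.15. It was 0.034 with a floor at percentile 70 of all signals, over 21 genes, and -0.054 on MOE430B alone, over 9 genes. The median of the glycolytic enzymes was -0.073 without _x_at, _s_at and _a_at probe sets, which left 6 of 10 genes, and -0.20 on MOE430B alone, over 3 genes. The median of the HIF targets was above 0 in all 13 alternatives run for it. Leaving out members with 1 measured probe set kept Ero1l alone and gave no value. On MOE430B alone the median of the HIF targets rested on Adm and Ankrd37 only. It was 0.10 with the floor at percentile 30 (9 genes) and also with a pseudocount equal to the floor (10 genes), and 0.061 with the floor at percentile 70, where 2 genes were left; the enzymes were at 0.14 with both floors, above the HIF targets. The count of members at least 1.5-fold higher was 1 as reported. It was 2 of 36 with the floor at percentile 30, beside 6.85% of all genes, 5 of 39 with no floor, beside 16.8%, 0 of 39 with the pseudocount, beside 2.12%, 0 of 9 on MOE430B alone, beside 6.50%, and 0 of 30 at 2-fold, beside 0.531%. The count at least 1.5-fold lower was 0 as reported. It was 1 of 36 with the floor at percentile 30, beside 7.08%, and 1 of 39 with no floor, beside 15.7%. Of the 30 members, 19 kept their sign under every alternative run for them. Among these, Ankrd37, Bnip3, Ddit4, Egln2, Hk2, Ldha, Pdk3, Pfkm, Pgam1, Pkm and Slc16a3 have 1 probe set in all. For them the choice of floor, probe set or design could not turn the sign, so the count says little about them. The 11 members whose sign changed were Aldoa, Arnt, Epas1, Hif1a, Hk1, P4ha1, Pfkfb4, Pfkl, Pfkp, Slc2a1 and Slc2a3. Egln1 ranged from 0.49 to 1.39, and Hif1a from -0.37 to 0.49. Centring on measured probe sets and leaving out members with 1 measured probe set were chosen after seeing the data; with the second the median over members was 0.05. The cause of these differences was not tested. Dim signals limit Aldoc, Slc16a1, Pdk1, Pfkfb3 and Ndrg1 to bounds.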

Other observations

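Probe sets annotated with a member and further genes entered no value above. Those shared by Bnip3l, a mitophagy receptor and HIF target, and its pseudogene were bright on MOE430A, reading 5849, 2733 and 1641 in the knockout sample, against 6699, 2486 and 1469 in the wild type. Their log2 ratios were -0.21, 0.13 and 0.15. The probe set shared by Gapdh and 4 other symbols read 149862 in the knockout sample and 150516 in the wild type, a log2 ratio of -0.02, and one on MOE430B shared with a pseudogene read 5755 in the knockout sample and 6788 in the wild type. A probe set shared by Hk1 and Rpl17 genes read 16160.5 in the knockout sample and 13079 in the wild type.

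Among HIF regulators outside the members, Hif3a, a HIF alpha subunit that can oppose the others, averaged 0.39 over 3 measured probe sets between -0.17 and 0.89, and Hif1an, the asparagine hydroxylase that blocks HIF activity, was at 0.19. Rbx1 and Cul2, which form the VHL ubiquitin ligase with Vhl, were at -0.38 and -0.29, on 1 measured probe set each. Vhl itself was at 0.29. The elongin subunits of the same ligase, Elob and Eloc, were at 0.17 and -0.16, and the measured probe sets of Eloc had opposite signs. The other Cul2 probe set, under the floor in both samples, read 550 in the knockout sample and 411 in the wild type. These genes were picked after their values were seen.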
